A study of Homo sapiens with 9 samples.

Results

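FLI1, ERG and ETS1, which are transcription factors of the ETS family, were described with 7 genes known for their place in endothelial cells, namely VWF, FLT1, KDR, PECAM1, CDH5, TIE1 and TEK. These 10 genes were taken by name from the 58395 gene identifiers counted in each library, and FLI1, VWF and FLT1 were chosen by their counts in these same libraries, which were higher after ZIP7 knockdown. The levels of those 3 against the control are therefore given as a description, with no test. The cells were MDA-MB-231, a human triple negative breast cancer line, transfected for 96 h with a nontargeting control siRNA (siNC), with ZIP7 siRNA_1 (siZIP7_1) or with ZIP7 siRNA_2 (siZIP7_2). ZIP7, encoded by SLC39A7, moves zinc from the endoplasmic reticulum to the cytosol, and the study asked how its loss changed gene expression. Each siRNA had 3 libraries, 9 in all. All groups were transfected with siRNA, were grown in the same serum-containing medium and came from 1 cell line, and the siRNAs against ZIP7 came from different makers. The transfections were made in triplicate according to the study's text, which does not say more on how the replicates were kept apart, so p-values measure the spread between these libraries.

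ETS factors bind DNA at sites with a GGAA core. FLI1, ERG and ETS1 act in blood vessel and blood cell development, where ETS sites are found at many endothelial genes. VWF is a clotting glycoprotein that endothelial cells and megakaryocytes store and release. FLT1 and KDR are receptors for vascular endothelial growth factors (VEGF), TIE1 and TEK form the angiopoietin receptor system, and PECAM1 and CDH5 hold endothelial cells together at their junctions.

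The libraries held 24153785 to 30454419 gene reads. Levels are given as CPM (counts per 1000000 reads after TMM scaling) with the SD of 3 libraries, and 3 levels in a row stand for siNC, siZIP7_1 and siZIP7_2 in that order. Fold changes (log2) come with a standard error (SE) and a Benjamini-Hochberg adjusted p of the quasi-likelihood test of edgeR across all genes. SLC39A7, the target, was at 329 ± 12.5, 35.6 ± 2.83 and 19.2 ± 1.45 CPM. Of 10 markers used to check the line, VIM, a mesenchymal intermediate filament, was the most abundant, at 5529 ± 180 CPM with siNC. The progesterone receptor gene PGR was at or under 3 counts in every library, and the oestrogen receptor gene ESR1 averaged 0.0887 CPM with siNC. ERBB2, the HER2 gene, was at 74.2 ± 2.15 CPM with siNC. The keratin genes KRT8, KRT18 and KRT19 were at 204 ± 2.23, 247 ± 10.1 and 79.6 ± 2.27 CPM. Both siRNAs lowered VIM (log2 fold changes -1.04 and -0.93) and GATA3 (-0.89 and -0.29). Both raised KRT19 (1.94 and 0.43) and ESR1 (1.38 and 2.43), although ESR1 did not pass with siZIP7_1 in DESeq2. Of the 9 markers tested, 5 passed an adjusted p of 0.05 in opposite directions with the siRNAs, beside 18.7% of all genes. CD44 was lower with siZIP7_1 and higher with siZIP7_2. KRT8 (1.29 and -0.15), KRT18 (0.59 and -0.39), EPCAM (0.56 and -0.57) and ERBB2 (0.25 and -0.32) went the other way. A count of 3, taken as the floor for detection, was 0.124 CPM before TMM scaling in the smallest library. Intervals and floors cover counting error only. No library was a copy of another, since chi-squared per gene was 2.41 to 6.42 for libraries sharing a siRNA and counting error alone gives 1.

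FLI1, VWF and FLT1 were near 0 or low with siNC and higher with both ZIP7 siRNAs. PECAM1 and TIE1 fell with siZIP7_1 and rose with siZIP7_2. KDR rose with siZIP7_1, and ETS1, abundant in every library, rose slightly with both. ERG was above the floor with siZIP7_2 alone, CDH5 was at 0 to 6 counts in every library but those of siZIP7_2, and TEK was low throughout. In bulk RNA, a change in the number of cells that express a gene and a change in RNA per cell cannot be told apart. Of the 10 genes, 9 passed the low-count filter of edgeR and ERG did not. Of the 6 tested genes that were not chosen for their rise, 5 passed an adjusted p of 0.05 with siZIP7_1, where 70.7% of the 16761 genes tested did. Of these 3 were higher and 2 lower, beside 34.8% and 35.9% of all genes. With siZIP7_2 4 passed, where 77.8% of all genes did, and all 4 were higher, beside 38.5% higher and 39.3% lower. With at least a 2-fold change asked for as well, 4 passed with siZIP7_1 beside 20.9% of all genes, and 3 with siZIP7_2 beside 28.2%. Between the siRNAs, a comparison not used to choose any gene, 8 of the 9 tested members differed beside 78.7% of all genes, 5 of them higher with siZIP7_2 (38.1% of all genes) and 3 lower (40.6%), and 7 of 9 did so by at least 2-fold beside 31.1%. FLI1, VWF, CDH5 and TEK passed the filter only through knockdown libraries, in which they were highest, so these counts carry no weight as support. Every comparison with siNC used the same 3 control libraries.

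**Figure D1:**
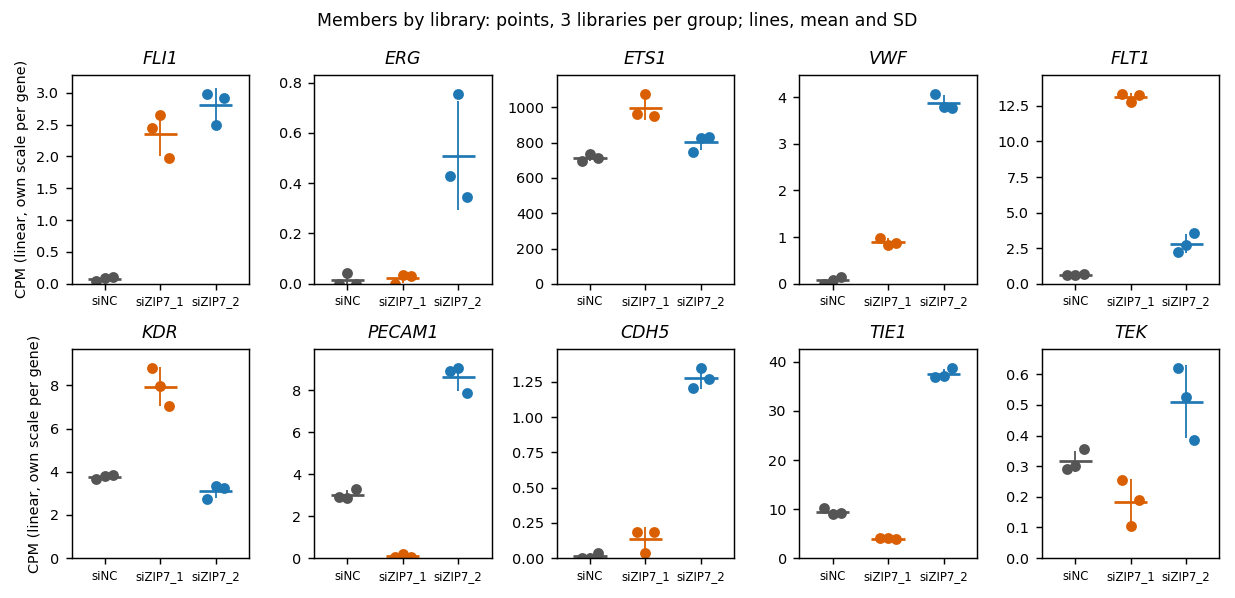
CPM of each of the 10 members in each of the 9 libraries, on a linear axis from 0 with its own scale for each gene, where points are libraries and lines are the mean and SD of 3. FLI1 is near 0 with siNC and at similar levels with both ZIP7 siRNAs, whereas PECAM1 and TIE1 are lowest with siZIP7_1 and highest with siZIP7_2.

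FLI1 (ENSG00000151702), on the plus strand of chromosome 11 (GRCh38, 128686535 to 128813267), had 1, 2 and 3 counts in the siNC libraries. With siZIP7_1 it had 67, 77 and 63 counts, and with siZIP7_2 it had 77, 76 and 76. No siNC library came near any knockdown library, and both ZIP7 siRNAs gave counts of the same order. On the CPM scale the level was 0.0763 ± 0.0362 with siNC, 2.35 ± 0.342 with siZIP7_1 and 2.80 ± 0.265 with siZIP7_2. Summed over libraries and scaled, FLI1 was 30.8-fold higher with siZIP7_1 (95% counting interval 13.9 to 84.8) and 36.7-fold higher with siZIP7_2 (16.6 to 101). The upper ends are wide because 6 counts in all stand for siNC. FLI1 was the 1 tested member whose difference between the siRNAs did not pass, at a log2 difference of 0.25 (95% interval -0.09 to 0.59, adjusted p = 0.163 by edgeR). Other genes overlapped 4.03% of its exonic length. Its antisense partner SENCR, a long noncoding RNA named for endothelial and smooth muscle cells, had 0 counts in all 9 libraries, and AP001122.1, the other overlapping gene, had 0 to 5. The strand setting of the counting is not given in the sources used here.

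ERG (ENSG00000157554), the ETS factor most like FLI1, lies on chromosome 21 from 38380027 to 38661780 on the minus strand. It had 0, 1 and 0 counts with siNC and 0, 1 and 1 with siZIP7_1. With siZIP7_2 it had 11, 23 and 9 counts. Every siZIP7_2 library was above every other library, and the other 6 were at or under the floor. Scaled sums gave a ratio of 41.3 for siZIP7_2 against siNC, with a counting interval of 7.03 to 1669, and of 23.1 against siZIP7_1 (6.03 to 197). ERG was not tested because it did not pass the low-count filter.

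ETS1 (ENSG00000134954), which lies 99.0 kb from FLI1 on the minus strand of chromosome 11 (128458761 to 128587558), was abundant in every library. Its counts were 19207, 17148 and 20006 with siNC, 26513, 31409 and 30292 with siZIP7_1, and 19311, 25164 and 21661 with siZIP7_2. Scaled levels of 715 ± 19.9, 998 ± 70.2 and 803 ± 46.7 CPM did not overlap between groups. It rose by 0.48 with siZIP7_1 on the log2 scale (SE 0.053; edgeR, adjusted p = 3.52e-09) and by 0.17 with siZIP7_2 (SE 0.053; edgeR, adjusted p = 0.00557). The rise was smaller with siZIP7_2 by 0.31 on the log2 scale (log2 difference -0.31, adjusted p = 4.78e-06 by edgeR).

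Per kilobase of exonic length (RPKM), ETS1 had the highest level of the 28 ETS genes in each group, and ELK3, an ETS factor of the serum response, the next. ETS1 made up 27.9% ± 0.412 of the summed RPKM of the family with siNC, 46.3% ± 1.26 with siZIP7_1 and 28.9% ± 0.947 with siZIP7_2. FLI1 reached only 0.288 ± 0.0419 RPKM with siZIP7_1 and 0.343 ± 0.0324 RPKM with siZIP7_2, against 140 ± 9.83 and 112 ± 6.54 RPKM of ETS1. It ranked 22 in the family with siNC and 19 with each ZIP7 siRNA. Thus FLI1 supplied 0.0955% and 0.0884% of the family's RPKM in the knockdown groups.

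Of the 25 ETS genes that are not members, 19 were tested. With siZIP7_1, 12 fell and 3 rose, with a median log2 fold change of -0.46 beside -0.00691 over all genes tested. With siZIP7_2, 6 fell and 8 rose, and the median was 0.01 beside -0.00178 over all genes. The shares of all genes were 34.8% higher and 35.9% lower with siZIP7_1, and 38.5% and 39.3% with siZIP7_2. ETV2, among the 3 that rose with siZIP7_1, did not pass in DESeq2 (adjusted p = 0.107). Genes lower with both siRNAs were ETV1, ETV4, ELF4, GABPA and ERF, although ETV4 did not pass with siZIP7_2 under DESeq2, its size factors or upper-quartile normalization. ETV1 was at 85.8 ± 6.02, 61.5 ± 1.95 and 57.0 ± 2.66 CPM. ELF4 was at 102 ± 5.26, 63.2 ± 0.933 and 69.8 ± 1.74 CPM. Both siRNAs raised ETV3, an ETS repressor, from 50.3 ± 0.438 CPM to 58.5 ± 1.65 and 98.1 ± 3.71 CPM, and ELF3, an epithelial factor, which stayed under 2 CPM. ELK1, a target of MAP kinases that was named after its values were seen, fell with siZIP7_1 from 67.3 ± 1.31 to 15.5 ± 0.919 CPM and was at 63.1 ± 0.167 CPM with siZIP7_2. SPI1, the ETS factor of myeloid cells, averaged 0.0121 CPM with siNC, and FEV and SPIC had 0 counts in every library.

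**Figure D2:**
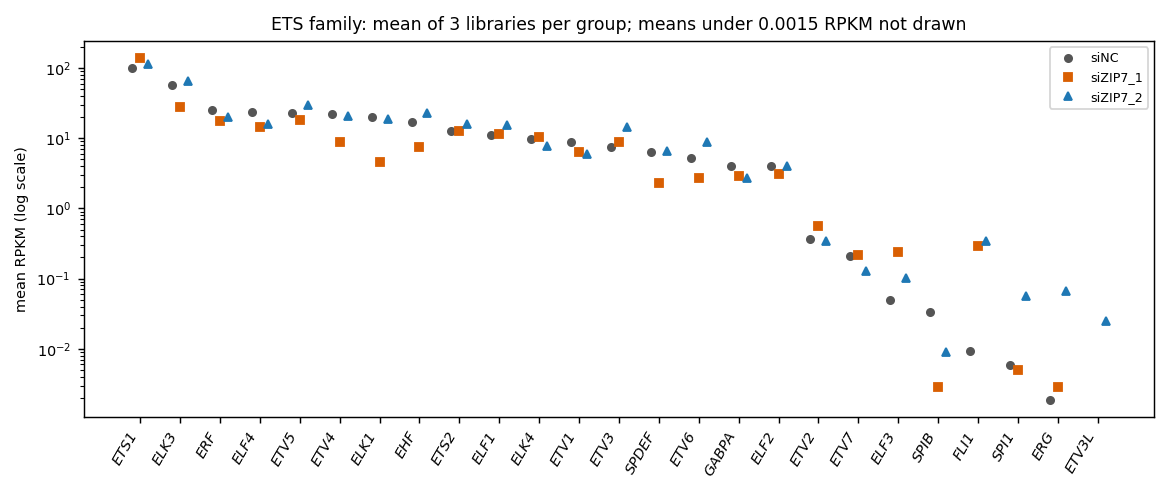
Mean RPKM of ETS family genes on a log axis, ordered by the siNC level, with 1 symbol per group and the mean of 3 libraries each. FLI1 sits near 0.3 RPKM in both knockdown groups, far under ETS1 at over 100 RPKM.

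VWF (ENSG00000110799), on chromosome 12 from 5948874 to 6124770 on the minus strand, had 0, 2 and 4 counts with siNC. It had 27, 24 and 28 counts with siZIP7_1, and 105, 115 and 98 with siZIP7_2. The 3 groups did not overlap, and siZIP7_2 gave the highest counts. Levels were 0.0761 ± 0.0717 CPM, 0.895 ± 0.0808 CPM and 3.88 ± 0.173 CPM. The scaled sums were 11.7-fold higher with siZIP7_1 (95% counting interval 5.16 to 33.0) and 50.9-fold higher with siZIP7_2 (23.1 to 140). These folds rest on 6 counts in siNC. In edgeR the log2 fold change with siZIP7_1 was 3.48, but 2.89 without siNC replicate 1 and 4.36 without siNC replicate 3. With siZIP7_2 it was 5.59, and 4.99 and 6.47 without those libraries. Between the knockdown groups VWF was higher with siZIP7_2, at a log2 difference of 2.11 (SE 0.20, adjusted p = 6.67e-11 by edgeR). The VWF pseudogene VWFP1 had 0 counts in all 9 libraries, and no other gene overlapped the exons of VWF.

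PECAM1 (ENSG00000261371, also CD31), an adhesion receptor of endothelial junctions and blood cells on chromosome 17 from 64319415 to 64413776, had 80, 67 and 92 counts with siNC. It had 2, 5 and 2 counts with siZIP7_1 and 230, 276 and 205 with siZIP7_2. Thus the gene was nearly absent from the counts of one knockdown and highest in the other, with no overlap between any groups. The level fell from 3.02 ± 0.222 CPM to 0.102 ± 0.0602 CPM with siZIP7_1 and rose to 8.63 ± 0.652 CPM with siZIP7_2. The log2 fold change was -4.83 (SE 0.29, adjusted p = 5.64e-15) and 1.51 (SE 0.13, adjusted p = 6.55e-12), both by edgeR. Summed counts were 29.8-fold lower with siZIP7_1 than with siNC (95% counting interval 15.4 to 65.9). Set against siZIP7_1, siZIP7_2 gave a log2 value higher by 6.35 (SE 0.23, adjusted p = 2.80e-20 by edgeR).

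CDH5 (ENSG00000179776), which encodes VE-cadherin, lies on chromosome 16 from 66366622 to 66404786 on the plus strand. It had 0, 0 and 1 counts with siNC, 5, 1 and 6 with siZIP7_1, and 31, 41 and 33 with siZIP7_2. The siZIP7_2 libraries stood above all others, whereas siNC and siZIP7_1 overlapped. The ratio to siNC was 101 with siZIP7_2 (95% counting interval 17.7 to 4020) and 10.7 with siZIP7_1 (1.58 to 458), and both rest on 1 count in siNC. The adjusted p by edgeR, 0.00829 with siZIP7_1 and 1.26e-10 with siZIP7_2, are given as a description, because CDH5 passed the filter only through siZIP7_2, where it is highest. Without siNC replicate 3, which holds it, the fitted log2 fold change went from 3.03 to 4.96 with siZIP7_1 and from 6.22 to 8.15 with siZIP7_2. Counted against siZIP7_1, the siZIP7_2 level was 9.42-fold higher (5.17 to 18.8).

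FLT1 (ENSG00000102755), also VEGF receptor 1, lies on chromosome 13 from 28300344 to 28495145 on the minus strand. It had 17, 14 and 19 counts with siNC, 367, 372 and 422 with siZIP7_1, and 58, 82 and 92 with siZIP7_2. All groups were apart, with siZIP7_1 highest, whereas VWF was highest with siZIP7_2. The levels were 0.632 ± 0.0395 CPM, 13.1 ± 0.309 CPM and 2.83 ± 0.653 CPM. The scaled sums were 20.7-fold higher with siZIP7_1 (95% counting interval 15.6 to 28.1) and 4.46-fold higher with siZIP7_2 (3.27 to 6.18). Between the knockdowns the log2 difference was -2.21 (SE 0.12, adjusted p = 2.98e-16 by edgeR).

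KDR (ENSG00000128052), VEGF receptor 2 and the main signalling receptor for VEGFA in endothelium, lies on chromosome 4 from 55078259 to 55125595. It had 101, 89 and 108 counts with siNC, 242, 232 and 224 with siZIP7_1, and 71, 102 and 84 with siZIP7_2. It rose from 3.78 ± 0.0971 CPM to 7.94 ± 0.893 CPM with siZIP7_1, a log2 fold change of 1.07 (adjusted p = 4.43e-09 by edgeR). With siZIP7_2 it was at 3.11 ± 0.316 CPM. Its libraries lay below those of siNC after scaling, but the log2 fold change of -0.27 (95% interval -0.56 to 0.01) did not pass (adjusted p = 0.0743 by edgeR). The siRNAs differed from each other by a log2 value of -1.34 (adjusted p = 4.89e-11 by edgeR).

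TIE1 (ENSG00000066056), an orphan receptor that modulates signalling through TEK, lies on chromosome 1 from 43300993 to 43323108. It had 279, 209 and 259 counts with siNC, 112, 117 and 123 with siZIP7_1, and 953, 1126 and 1009 with siZIP7_2. As with PECAM1, the groups were ordered siZIP7_1, siNC, siZIP7_2, with no overlap. The level fell from 9.44 ± 0.607 CPM to 3.99 ± 0.114 CPM with siZIP7_1 and rose to 37.6 ± 1.03 CPM with siZIP7_2. The log2 fold changes were -1.25 (SE 0.096, adjusted p = 1.52e-12) and 1.99 (SE 0.072, adjusted p = 4.01e-20), both by edgeR. PECAM1 and TIE1 were the members past the threshold in opposite directions with the siRNAs, as were 18.7% of all genes tested. Both were past 2-fold in each direction, as were 2.36% of all genes.

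TEK (ENSG00000120156, also TIE2), the angiopoietin receptor, lies on chromosome 9 from 27109141 to 27230175. It had 8, 7 and 10 counts with siNC, 7, 3 and 6 with siZIP7_1, and 16, 16 and 10 with siZIP7_2. Neither comparison with siNC passed, at a log2 fold change of -0.79 with siZIP7_1 (95% interval -1.71 to 0.13, adjusted p = 0.116 by edgeR) and 0.68 with siZIP7_2 (95% interval -0.06 to 1.43, adjusted p = 0.0887 by edgeR). Between the siRNAs the log2 difference was 1.47, higher with siZIP7_2 (SE 0.40, adjusted p = 0.00149 by edgeR), which is given as a description because TEK passed the filter only through siZIP7_2. After scaling, the groups did not overlap and were ordered siZIP7_1, siNC, siZIP7_2, although their raw counts met at 7 and at 10. At 3 to 16 counts per library, a difference from siNC smaller than these intervals was not detectable.

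**Figure D3:**
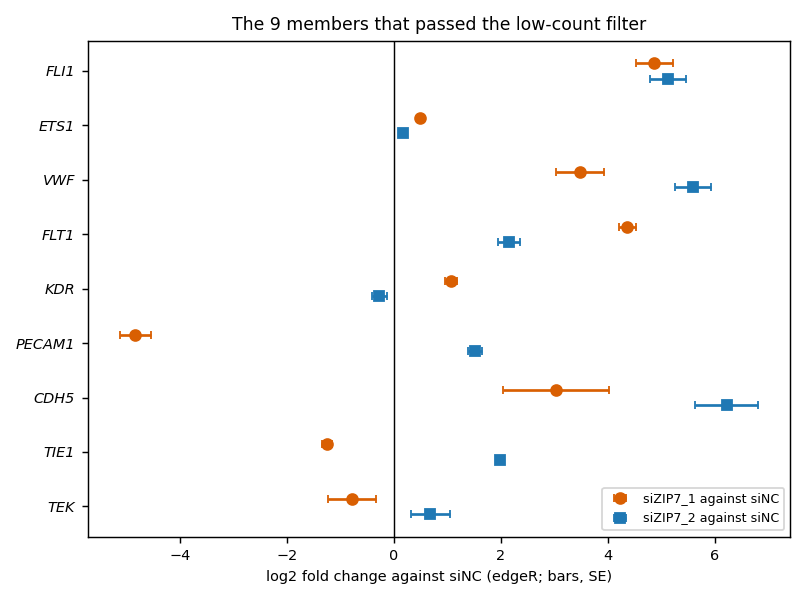
Log2 fold change against siNC from edgeR, with its SE, of the 9 members that passed the filter, for siZIP7_1 (circles) and siZIP7_2 (squares). PECAM1 and TIE1 lie on opposite sides of 0 for the siRNAs, and the fitted sizes of FLI1, VWF and CDH5 rest on 6, 6 and 1 counts in siNC.

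RefSeq promoters of GRCh38.p14, from 250 bases before to 50 after the start, were at hand for 5 of the 10 members, in 9 entries. FLI1, ETS1, VWF, PECAM1 and CDH5 had no entry in that table. The promoters of the receptors FLT1, KDR and TIE1, whose levels were ordered in different ways by the siRNAs, are shown, and those of TEK and ERG are not. They are written 5′ to 3′ on the strand of the gene, with each GGAA or its reverse complement TTCC in capitals. In FLT1 the cAMP response element TGACGTCA is also in capitals. They lie at chr13:28495079-28495378 (minus), chr4:55125546-55125845 (minus) and chr1:43300732-43301031 (plus).
FLT1: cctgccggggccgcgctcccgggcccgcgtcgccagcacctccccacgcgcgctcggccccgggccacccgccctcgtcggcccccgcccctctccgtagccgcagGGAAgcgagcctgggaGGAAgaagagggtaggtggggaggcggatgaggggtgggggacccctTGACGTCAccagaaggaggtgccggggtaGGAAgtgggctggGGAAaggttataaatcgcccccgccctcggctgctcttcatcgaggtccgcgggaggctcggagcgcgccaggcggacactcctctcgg
KDR: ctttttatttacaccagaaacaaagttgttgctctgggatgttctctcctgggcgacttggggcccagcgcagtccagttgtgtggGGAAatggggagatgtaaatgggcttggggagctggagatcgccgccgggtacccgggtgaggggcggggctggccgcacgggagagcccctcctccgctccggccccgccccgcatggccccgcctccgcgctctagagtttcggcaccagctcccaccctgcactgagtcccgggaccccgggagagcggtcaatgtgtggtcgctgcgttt
TIE1: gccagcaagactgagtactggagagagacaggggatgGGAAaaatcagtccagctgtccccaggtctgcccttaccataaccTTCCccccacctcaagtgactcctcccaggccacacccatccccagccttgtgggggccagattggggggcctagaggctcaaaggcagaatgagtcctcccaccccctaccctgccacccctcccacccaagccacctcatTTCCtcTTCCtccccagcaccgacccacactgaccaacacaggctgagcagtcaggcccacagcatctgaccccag
Searched on both strands, GGAA was found 4 times in FLT1, 1 time in KDR and 4 times in TIE1. In the entries not shown it was found 4 and 7 times in TEK and 1, 6, 2 and 2 times in ERG. Of 35116 promoters of this length 95.5% hold it at least once, with a median of 3. The longer match CGGAAG, held by 19.5% of promoters, was in none of the 9 member entries. TGACGTCA was found 1 time in FLT1 and in no other member entry, and 1.85% of all promoters hold it. These are matches of letters, not sites shown to be bound.

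Per exonic length, the order of the members changed with each siRNA. With siNC it was ETS1 at 100 RPKM, then TIE1 at 1.41 ± 0.0906, KDR at 0.576 ± 0.0148, PECAM1 at 0.389 ± 0.0286, TEK at 0.0657 ± 0.00733 and FLT1 at 0.0503 ± 0.00314 RPKM. FLI1, VWF, CDH5 and ERG followed at 0 to 4 counts per library, where FLI1 did not differ from VWF beyond their spread, nor CDH5 from ERG. With siZIP7_1 the receptors KDR (1.21 ± 0.136 RPKM) and FLT1 (1.04 ± 0.0246 RPKM) came next after ETS1, followed by TIE1 (0.595 ± 0.0170 RPKM), FLI1 (0.288 ± 0.0419 RPKM) and VWF (0.0862 ± 0.00777 RPKM). TEK (0.0379 ± 0.0158 RPKM), CDH5 (0.0222 ± 0.0143 RPKM) and PECAM1 (0.0132 ± 0.00776 RPKM) lay within their spread of the next, and ERG was last. With siZIP7_2 TIE1 (5.62 ± 0.153 RPKM) and PECAM1 (1.11 ± 0.0840 RPKM) came next. There the neighbours VWF (0.373 ± 0.0167 RPKM) and FLI1 (0.343 ± 0.0324 RPKM) did not differ beyond their spread, nor did FLT1 (0.225 ± 0.0520 RPKM) and CDH5 (0.209 ± 0.0120 RPKM).

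Ligands and partners of these receptors were listed too. VEGFA, a ligand of FLT1 and KDR, was at 534 ± 9.77 CPM with siNC, fell to 138 ± 3.54 CPM with siZIP7_1 and rose to 608 ± 23.4 CPM with siZIP7_2. NRP1, a VEGF co-receptor, followed the same order at 559 ± 13.6, 210.3 ± 11.9 and 852 ± 16.1 CPM, and so did VEGFC, a ligand of KDR and of the lymphatic receptor FLT4, at 90.3 ± 2.97, 36.8 ± 0.476 and 191 ± 2.73 CPM. These 3 genes were named after their values were seen. VEGFB, another VEGF ligand, went the other way (log2 fold changes 0.46 and -0.13). Of the 12 listed ligands and partners 8 were tested, of which 2 rose and 4 fell with siZIP7_1 (median log2 fold change -0.67 beside -0.00691 over all genes tested) and 6 rose and 2 fell with siZIP7_2 (0.76 beside -0.00178). Of all genes 34.8% rose and 35.9% fell with siZIP7_1, and 38.5% and 39.3% did with siZIP7_2. VEGFB did not pass with siZIP7_2 under the other scalings, which left 6 and 1. By the rule for named genes, PTPRB, the endothelial tyrosine phosphatase that acts on TEK, rose with both, from 1.40 ± 0.308 to 4.07 ± 0.481 and 18.1 ± 1.02 CPM. ANGPT1, the activating ligand of TEK, fell with both, from 3.17 ± 0.566 to 1.33 ± 0.0517 and 2.00 ± 0.196 CPM. FLT4, ANGPT2, ANGPT4 and VEGFD were not tested and averaged under 0.21 CPM in every group.

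A list of 43 other endothelial genes was counted in the same way. Of these, 17 were at or under 3 counts in every library, among them the endothelial markers EMCN and CLDN5, and CLEC14A, RAMP2 and CYYR1 had 0 counts throughout. Of the 20 tested, 7 rose and 8 fell with siZIP7_1 (median log2 fold change -0.08 beside -0.00691 over all genes tested), and 16 rose and 3 fell with siZIP7_2 (1.15 beside -0.00178). Over all genes tested the shares were 34.8% higher and 35.9% lower with siZIP7_1, and 38.5% and 39.3% with siZIP7_2. DLL4, ESM1, NOS3, GPR4 and MMRN2 passed the low-count filter only through knockdown libraries, in which they were highest. VCAM1 passed it only through siNC. The counts and medians of this list therefore carry no weight as support. ESAM, a junction protein and the most abundant gene of the list with siNC, was at 202 ± 8.61, 290 ± 4.63 and 180 ± 6.30 CPM. It rose with siZIP7_1 (log2 fold change 0.52). With siZIP7_2 it was among the 3 lower and did not pass with upper-quartile normalization. NOS3, the endothelial nitric oxide synthase, was among the 16 higher with siZIP7_2 and did not pass in DESeq2 (adjusted p = 0.0690). MCAM, named after its values were seen, rose with both siRNAs, from 94.4 ± 3.76 CPM to 133 ± 3.37 and 292 ± 5.14 CPM. DLL4, a Notch ligand of arterial and tip cells, rose from 0.275 ± 0.0565 CPM to 2.25 ± 0.402 and 2.01 ± 0.112 CPM. MYCT1 rose from 3.56 ± 0.602 CPM to 23.0 ± 0.872 and 5.97 ± 0.618 CPM, and APLN, the ligand of the apelin receptor, from 4.53 ± 0.401 to 23.2 ± 1.55 CPM with siZIP7_1 and less with siZIP7_2 (log2 fold changes 2.36 and 1.42). ESM1, a proteoglycan secreted by endothelium, rose from 0.251 ± 0.0379 CPM to 0.492 ± 0.120 and 11.7 ± 0.333 CPM. PROCR, the protein C receptor, fell with both, from 41.9 ± 1.36 CPM to 30.3 ± 0.580 and 32.1 ± 2.73 CPM.

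Some of these genes were lower with siZIP7_1 and higher with siZIP7_2, as PECAM1 and TIE1 were, and are named after their values were seen. CD34, a surface sialomucin of endothelial and blood progenitor cells, was at 2.11 ± 0.342, 1.04 ± 0.242 and 8.52 ± 1.08 CPM. ROBO4, a receptor that stabilizes vessels, was at 67.7 ± 1.67, 52.1 ± 2.10 and 153 ± 10.7 CPM, and THBD, the thrombin receptor thrombomodulin, at 144 ± 5.78, 46.9 ± 0.334 and 251 ± 11.6 CPM. The same was seen in LMO2, a transcription cofactor of blood and endothelial development in the list of transcription factors, which had log2 fold changes of -1.14 and 1.47. In all, 7 of the 20 tested other endothelial genes and 4 of the 14 tested transcription factors passed in opposite directions, beside 18.7% of all genes. Among these, ESAM (log2 fold changes 0.52 and -0.16) and MEF2C (0.77 and -1.25) were higher with siZIP7_1 and lower with siZIP7_2.

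Of 20 endothelial transcription factors, 14 were tested, of which 6 rose and 5 fell with siZIP7_1 and 7 rose and 4 fell with siZIP7_2. The median log2 fold changes were 0.01 and 0.01, beside -0.00691 and -0.00178 over all genes, of which 70.7% and 77.8% passed. PROX1, HEY1 and FOXO1 rose with both siRNAs, although PROX1 did not pass with siZIP7_1 in DESeq2. HEY1, a Notch target, went from 1.95 ± 0.101 CPM to 2.88 ± 0.573 and 5.59 ± 0.778 CPM. KLF2 and KLF4, factors that respond to blood flow in endothelium, fell with both. KLF2 went from 33.4 ± 0.240 CPM to 18.3 ± 0.802 and 15.9 ± 0.637 CPM. TAL1 and SOX17 had 0 counts in every library, and SOX18 was at or under 3.

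**Figure D4:**
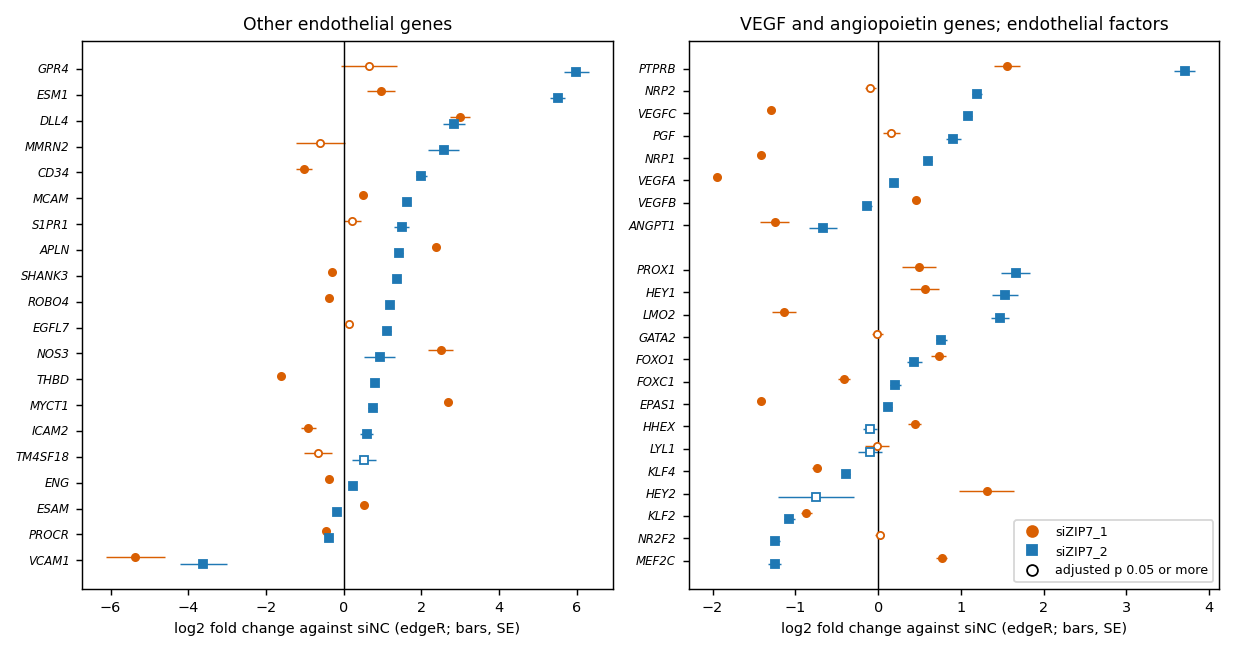
Log2 fold change against siNC from edgeR, with its SE, of the tested genes of the lists of other endothelial genes (left), VEGF and angiopoietin ligands and partners (upper right) and endothelial transcription factors (lower right). Circles are siZIP7_1, squares are siZIP7_2 and open symbols did not pass. Most endothelial genes on the left lie above 0 for siZIP7_2, whereas those of siZIP7_1 lie on both sides. Some genes passed the low-count filter only through the group where they are highest.

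VWF is stored in Weibel-Palade bodies, and genes for that storage and release were listed apart. Of 18 genes 16 were tested, 9 rose and 6 fell with siZIP7_1 (median log2 fold change 0.20 beside -0.00691 over all genes) and 8 rose and 3 fell with siZIP7_2 (0.15 beside -0.00178). Of all genes, 70.7% passed with siZIP7_1 and 77.8% with siZIP7_2. RAB3D, a secretory GTPase, rose from 4.64 ± 0.601 CPM to 23.4 ± 1.01 and 16.0 ± 0.653 CPM. RAB3B, a related GTPase, rose from 0.568 ± 0.239 CPM to 30.5 ± 2.66 with siZIP7_1 and 1.37 ± 0.0676 CPM with siZIP7_2. STX3, a membrane fusion protein, rose from 64.6 ± 3.02 CPM to 273 ± 8.36 and 110.0 ± 3.01 CPM. F8, the clotting factor carried by VWF, rose with siZIP7_1 from 9.23 ± 0.264 to 13.1 ± 1.31 CPM and was at 10.2 ± 0.533 CPM with siZIP7_2, which passed only under upper-quartile normalization.

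Markers of other cell types that carry some of the members were followed in the same libraries. Of 16 megakaryocyte and platelet markers, 11 were at or under 3 counts in every library and GP1BB, GP9, PF4, GATA1, TREML1 and P2RY12 had 0. The summed level of that list ranged over 187 to 192, 108 to 114 and 133 to 139 CPM in the siNC, siZIP7_1 and siZIP7_2 libraries, nearly all of it RUNX1 (187 ± 2.44 CPM with siNC). Of 16 blood cell markers, 7 were at or under 3 counts in every library, HBA1 and TYROBP had 0 throughout, and PTPRC (CD45) averaged 0.402, 0.875 and 0.327 CPM. Their summed level ranged over 112 to 120, 26.2 to 27.4 and 458 to 504 CPM. LAPTM5, a lysosomal protein of blood cells named after its values were seen, made up most of it. It was at 110.2 ± 4.31, 20.3 ± 1.01 and 484 ± 26.3 CPM, in the order of PECAM1 and TIE1. Of the 8 blood cell markers tested, 2 rose and 3 fell with siZIP7_1, where 70.7% of all genes passed. With siZIP7_2 2 rose and 2 fell, where 77.8% passed. LAPTM5 was the 1 that passed in opposite directions, and 2 others fell with both. Of 9 mural cell markers 1, KCNJ8, was at or under 3 counts in every library. Of the 6 tested, 3 rose and 2 fell with siZIP7_1, where 70.7% of all genes passed. With siZIP7_2 3 rose and 1 fell, where 77.8% passed. PDGFRB, the growth factor receptor of mural cells, was the 1 that rose with both siRNAs (log2 fold changes 1.51 and 1.28). RGS5 fell with siZIP7_2 (-1.75), and NOTCH3 and ABCC9 fell with siZIP7_1 and rose with siZIP7_2. The summed level was 17.9 to 19.2, 48.4 to 53.8 and 26.0 to 30.3 CPM. With siZIP7_1 most of it was CSPG4, at 8.16 ± 0.399, 32.5 ± 1.33 and 8.41 ± 0.231 CPM. The part of these markers in the results on the members was not tested.

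The genes whose profile over the 9 libraries was nearest to a chosen member were found among 13736 tested genes averaging at least 1 CPM, by the root mean square difference of log2 CPM (prior count 2) centred on siNC. Nearest to FLI1 were KISS1 (0.34 log2 units), LINC02407 (0.37) and HIST2H2BE (0.49). KISS1, which encodes the kisspeptin precursor, was at 2.17 ± 0.543, 38.0 ± 2.56 and 56.8 ± 4.48 CPM. Nearest to VWF were RELN (0.36), DCLK1 (0.56) and OR2B6 (0.58). RELN, the secreted glycoprotein reelin, was at 2.89 ± 0.456, 19.0 ± 1.05 and 86.2 ± 11.8 CPM. Nearest to FLT1 were GPR65 (0.29), KIF17 (0.29) and MAMDC2 (0.33). KIF17, a kinesin motor, was at 0.633 ± 0.224, 13.3 ± 0.496 and 2.99 ± 0.342 CPM, close to the values of FLT1 itself. None of these 9 genes is in the lists above.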

How the data were processed

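RNA-seq was analysed in 9 libraries of MDA-MB-231 cells. The authors deposited raw counts of single reads per Ensembl gene, with no normalization. The submitters' notes name Trim Galore 0.4.1, STAR, HTSeq 0.6.1 and DESeq2 1.16.1 among their tools, and the genome build is not given in the sources used here. Summary lines that name no gene held 10.3% to 14.1% of reads and were left out. Symbols, positions and exonic lengths came from GENCODE release 29 (GRCh38), which held 58275 of 58395 identifiers. Counts were fitted in R 4.3.3 with edgeR 4.0.16 (TMM, the low-count filter over the groups, the quasi-likelihood test, Benjamini-Hochberg adjustment over all 16761 genes, threshold 0.05), in 1 fit to the 3 groups. The filter let a gene pass through 1 group alone, in the lists as among the members. Counts of calls in the lists therefore carry no weight as support. The steps were tested on simulated data. RPKM used exonic length, and ratios of summed counts have exact 95% binomial intervals.

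The members and lists were chosen with earlier results of these data known. The rule for named genes took the members, SLC39A7, the 3 nearest profiles, and the 3 protein-coding neighbours on each side of FLI1, VWF and FLT1. It also took up to 4 genes a list in each direction that passed in 1 direction with both siRNAs. Their mean was at least 1 CPM. Some genes under the rule, among them CD63 and several neighbours, are not described. Genes outside it, among them F8, CSPG4, RGS5, NOTCH3 and ABCC9, were named after their values were seen. Alternatives were DESeq2 1.42.0, its size factors in edgeR, upper-quartile normalization, 2 other filters, a test against 1.8-fold, a block for the replicate number, a prior count of 2 and each library left out.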

Additional observations from a re-analysis of the deposited data

Results flagged for a closer look

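PECAM1 and TIE1 were called in opposite directions by the siRNAs against ZIP7, and the difference between the siRNAs was itself tested. PECAM1 was higher with siZIP7_2 than with siZIP7_1 by 6.35 on the log2 scale and TIE1 by 3.24, in every library of one group against every library of the other (adjusted p = 2.80e-20 and 3.80e-24 by edgeR). Groups of 3 libraries are too small to look for a single library that stands apart.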

How the results depend on the processing

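No tested member changed direction under any alternative, and none changed its side of the threshold except in the test against 1.8-fold. KDR had adjusted p of 0.054 to 0.273 with siZIP7_2 over the other alternatives, and CDH5 0.0019 to 0.041 with siZIP7_1. Those of CDH5 are a description and carry no weight as support. It passed the filter only through siZIP7_2, where it is highest, and its siNC and siZIP7_1 libraries overlapped. Counts of calls moved by over 1.5 times in a few cases. With at least 10 counts in every library, 3 of the 6 counted members and 4 of all 9 could be tested, since FLI1, VWF, PECAM1, CDH5 and TEK dropped out. The members called were then 3 with siZIP7_1, 2 with siZIP7_2 and 4 between the siRNAs, and at 2-fold 2, 1 and 3. The other endothelial genes called with siZIP7_2 were 12 and the blood cell markers 2 with each siRNA. Tested against 1.8-fold, 2 members were called with siZIP7_1 and 2 at 2-fold, since ETS1, KDR and CDH5 no longer passed. Without a low-count filter, 4 megakaryocyte markers were called with siZIP7_2. Those shifts follow from fewer or more genes tested, or from the stricter hypothesis. A prior count of 2 shrank the fitted log2 fold changes of members with few counts, from 4.87 and 5.12 to 4.03 and 4.27 in FLI1, from 3.48 and 5.59 to 2.70 and 4.73 in VWF, from 3.03 and 6.22 to 1.29 and 3.99 in CDH5, and from -4.83 to -4.16 in PECAM1 with siZIP7_1, whose difference between the siRNAs went from 6.35 to 5.65. Upper-quartile normalization raised the median of all genes with siZIP7_2 by 0.11 on the log2 scale and reversed no member. Libraries of the same number did not deviate together (9 pairs, correlations from -0.05 to 0.08, beside -0.13 to 0.11 in 18 pairs of different number). These correlations cannot show whether the numbers mark a shared day or culture, which the sources do not say. With the replicate number as a block (replicate block), 5, 4 and 8 members were called, as without it. Depth limits the folds of FLI1, VWF, ERG and CDH5, which rest on 1 to 6 counts in siNC, and the intervals of TEK.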

Other observations

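GPR4, a proton-sensing receptor of endothelium named after its values were seen, had 1 to 2 counts per library with siNC, 2 to 4 with siZIP7_1 and 96 to 142 with siZIP7_2. VCAM1, a leukocyte adhesion molecule, averaged 0.638, 0.0105 and 0.0439 CPM. In the list of other endothelial genes it was the other gene beside PROCR that both siRNAs lowered. It passed the low-count filter only through siNC, where it is highest.

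Around the 3 chosen members, the nearest protein-coding genes gave mixed values. VWF lies 2.64 kb from ANO2, a calcium-activated chloride channel gene, which was at 1.88, 23.4 and 1.92 CPM, whereas VWF was highest with siZIP7_2. CD9, a tetraspanin on its other side, rose with both siRNAs, from 84.9 CPM to 202 and 187 CPM. Next to FLT1, PAN3, a subunit of a deadenylase, was at 45.9, 43.7 and 56.2 CPM, and POMP, a proteasome assembly factor, at 104, 103 and 95.2 CPM. FLT3, a blood cell receptor, averaged under 0.03 CPM in every group. Beside FLI1, C11orf45 was at 8.39, 4.95 and 12.4 CPM, and the potassium channel genes KCNJ1 and KCNJ5 averaged under 0.15 CPM in every group and were not tested. All values are means of 3 libraries, in the order siNC, siZIP7_1 and siZIP7_2.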
